A study of Danio rerio with 9 samples.

Results

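The genes pax3a, pax7a and pax7b were described in sorted cells of zebrafish (Danio rerio) embryos. They were found by symbol in the deposited table that compares cardiac and trunk neural crest, and their identifiers were then looked up in the deposited count table. All 3 were found, among 20847 genes of the first table and 31953 of the second.

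The 9 libraries fall into 3 groups of 3. Cardiac crest cells were mCherry-positive cells sorted at 17 h post-fertilisation, the 16-somite stage, in dissected embryos from the midbrain-hindbrain boundary back to somite 6. Their line carried Tg(-4.9sox10:GAL4-UAS-cre), in which a 4.9 kb fragment of sox10 directs expression, together with UAS:NfsB-mCherry, a fusion of mCherry to a bacterial nitroreductase. The same line carried myl7:nucGFP, a nuclear GFP under the heart muscle promoter myl7. Non-crest cells were the mCherry-negative cells of the same tissue, line and age. Trunk crest cells were GFP-positive cells sorted at 24 h from somites 7 to 16 of Tg(-4.9sox10:eGFP) embryos, in a trunk dissection. All groups carry a transgene under the same sox10 fragment, so no group is wild type, and crest identity rests on the reporter alone. The trunk group differs from both others in age, body level, line and reporter together, and these cannot be told apart. Its library numbers also lie below those of both other groups, which the labels do not explain. The name of the deposited count table carries another stage, 20ss, and the labels were followed here. Whether replicate libraries stem from separate embryo pools is not given in the labels. Their p-values therefore reflect library-to-library spread alone, and that spread may be technical.

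PAX3 and PAX7 proteins are transcription factors that bind DNA through a paired domain and a homeodomain. In vertebrate embryos their genes are active at the border of the neural plate, in the dorsal neural tube, in premigratory and migrating neural crest, and in the dermomyotome, the layer of the somite that supplies muscle progenitors. In zebrafish, pax3a and the pair pax7a and pax7b, duplicates kept since the teleost genome duplication, are known for their requirement in xanthophores, the yellow pigment cells made by the crest. In mouse, Pax3 is known for its requirement in the cardiac crest that divides the outflow tract of the heart.

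On GRCz10, with Ensembl release 80 gene models, pax3a (ENSDARG00000010192) spans chromosome 2, positions 47517819 to 47578737, on the minus strand. The gene pax7a (ENSDARG00000100398) spans chromosome 11, positions 40652295 to 40782512, on the plus strand. The gene pax7b (ENSDARG00000070818) spans chromosome 23, positions 20936394 to 21012544, on the plus strand. Their gene bodies measure 60.9 kb, 130.2 kb and 76.2 kb. Reads were counted over whole gene bodies, introns included, so levels per length refer to these spans. No base of pax3a or pax7a lies in another annotated gene, and 0.11% of pax7b does. Whether reads of pax7a and pax7b can be mistaken for each other was not examined, since the deposited counts do not show it.

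The count table held between 34062539 and 45172404 reads per library, and the trunk libraries between 25128422 and 29842884 reads in the listed genes. The sort was checked with sox10, the crest transcription factor whose fragment drives the reporters. It stood at 246 to 446 CPM, counts scaled to the library total, in cardiac crest. In trunk crest it stood at 681 to 729 CPM and in non-crest libraries at 9.04 to 27.8 CPM. Several libraries stood apart within their groups. Markers of differentiated muscle summed to 70.3 and 84.7 CPM in cardiac crest replicates 1 and 2 and to 12872 CPM in replicate 3. They summed to 27755 CPM in trunk crest replicate 1 against 7391 and 10641 CPM in the other two. Non-crest replicate 3 had the lowest correlations within its group, 0.845 and 0.816 across genes, against 0.912 between the other two. Values without these libraries are given below for several of the results they touch.

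The 3 genes differed in how they were distributed over the groups. The duplicates pax7a and pax7b were lower in both 17 h groups than in trunk crest, by about an order of magnitude. In contrast, pax3a was lower in trunk crest than in non-crest cells, and its cardiac crest libraries overlapped both. In these bulk samples, fewer cells that express a gene and less RNA per cell cannot be told apart. Levels below are CPM over the genes listed in both deposited tables, in the order of replicates 1, 2 and 3, unless another scale is named. Where groups are said not to overlap, the share of all genes with the same separation was not determined.

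In cardiac crest, pax7b stood at 31.5, 97.9 and 41.1 CPM, a mean of 56.9 ± 35.9 (SD, n = 3). In non-crest cells it stood at 76.5, 37.8 and 55.0 CPM, a mean of 56.5 ± 19.4 (SD, n = 3). In trunk crest it stood at 442, 498 and 569 CPM, a mean of 503 ± 63.4 (SD, n = 3). Every trunk library was above every 17 h library, and the cardiac crest and non-crest ranges overlapped. These values rest on 1348 to 14292 pax7b reads per library.

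The duplicate pax7a was likewise highest in trunk crest, at lower levels. It stood at 6.83, 19.7 and 6.49 CPM in cardiac crest, at 15.6, 10.3 and 11.1 CPM in non-crest cells, and at 108, 97.0 and 91.7 CPM in trunk crest. The group means were 10.99 ± 7.50, 12.3 ± 2.87 and 98.8 ± 8.17 CPM (SD, n = 3 each). Trunk libraries again lay above all others without overlap, and the ranges of the 17 h groups overlapped.

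The third gene, pax3a, ran the other way. It stood at 132, 73.5 and 73.8 CPM in non-crest cells, a mean of 93.2 ± 33.9 (SD, n = 3). In cardiac crest it stood at 22.6, 76.2 and 47.2 CPM, a mean of 48.7 ± 26.8 (SD, n = 3). In trunk crest it stood at 23.1, 33.4 and 30.7 CPM, a mean of 29.1 ± 5.34 (SD, n = 3). Non-crest and trunk libraries did not overlap, whereas cardiac crest overlapped both of its neighbours in this order. Cardiac crest replicate 2 held the highest level of its group for all 3 genes.

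**Figure D1:**
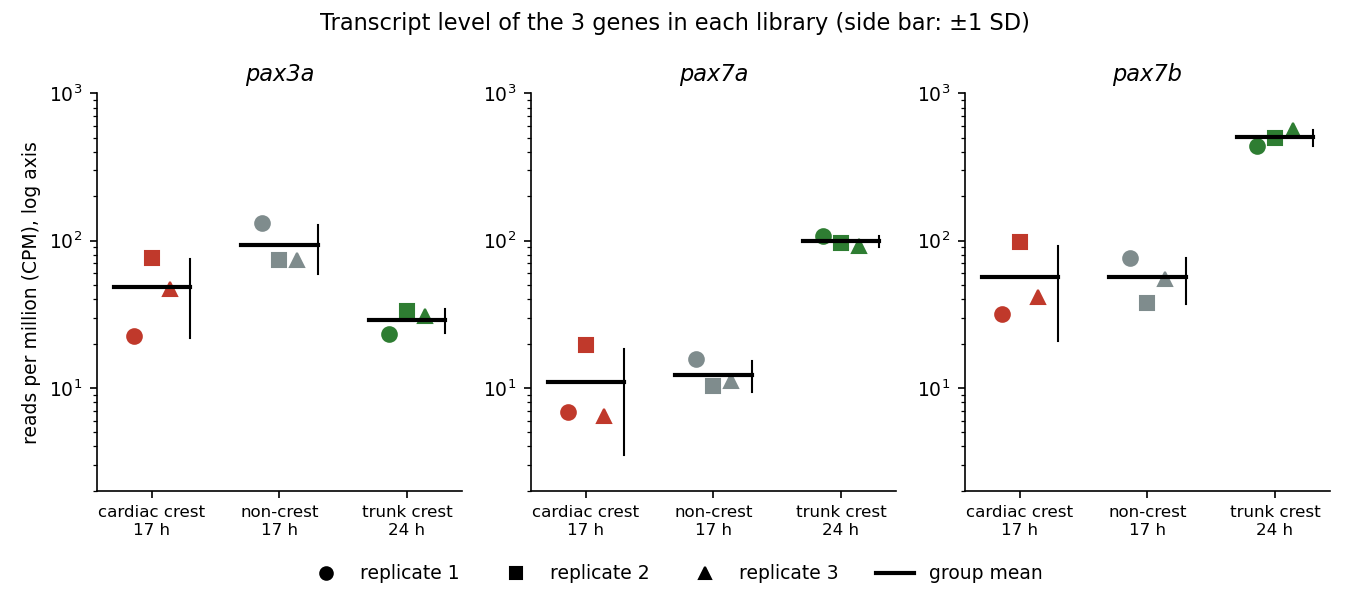
Levels of pax3a, pax7a and pax7b in each of the 9 libraries, in CPM over the genes of both tables on a log axis. Points are libraries, horizontal bars are group means and vertical side bars are 1 SD either way (n = 3). The trunk crest points of pax7a and pax7b lie above all others, and those of pax3a lie below all non-crest points.

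Cardiac crest against trunk crest compares the sorted crest groups, which differ in age, body level, line and reporter together. It was tested with limma on log2 of the authors' size-factor-scaled reads with 1 added. The scaled reads numbered 986, 2564 and 1186 for pax7b in cardiac crest libraries, and 15618, 18385 and 20589 in those of trunk crest. The groups were widely separated, the lowest trunk library holding several times the highest cardiac crest one. The level in trunk crest was 12.5 times that in cardiac crest (95% interval 7.31 to 21.5, adjusted p = 0.0002). For pax7a they numbered 214, 515 and 187 in cardiac crest libraries, and 3804, 3580 and 3319 in those of trunk crest. Its level in trunk crest was 13.0 times that in cardiac crest (95% interval 7.14 to 23.5, adjusted p = 0.000304). For pax3a they numbered 707, 1995 and 1363 in cardiac crest libraries, and 815, 1231 and 1112 in those of trunk crest. These ranges overlapped, and pax3a did not pass the test (log2 difference 0.26 ± 0.38 SE, cardiac minus trunk, adjusted p = 0.665). The 95% interval of that difference ran from -0.61 to 1.13, so neither a modest rise nor a modest fall could be told from none.

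Thus 2 of the 3 genes were lower in cardiac crest and none was higher. Over all genes tested, 12.5% were lower in cardiac crest and 10.7% were higher, 23.2% in either direction. That is 2596 lower and 2233 higher, and 2307 lower and 2669 higher with upper-quartile factors. In the authors' deposited table, the log2 fold change of trunk over cardiac crest was 3.55 ± 0.43 (SE) for pax7a and 3.53 ± 0.40 (SE) for pax7b. Their adjusted p in the authors' deposited table was 3.37e-15 and 1.35e-16. For pax3a the authors' deposited table gave -0.36 ± 0.42 (SE), adjusted p = 0.579. Without cardiac crest replicate 3, which held the muscle transcripts, the log2 difference of cardiac minus trunk crest was -3.42 for pax7a and -3.51 for pax7b, and both still passed. Without trunk crest replicate 1 it was -3.65 and -3.75, and both passed there too.

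Trunk crest was compared with non-crest cells across the 2 deposited tables. The reads of the trunk libraries were recovered as whole numbers from the authors' scaled values. The same recovery gave back the deposited raw counts of the 3 cardiac crest libraries for all 20847 genes. With limma on log2(CPM + 1), pax7b was 9.08 times as high in trunk crest as in non-crest cells (95% interval 5.73 to 14.4, adjusted p = 0.00042). For pax7a the ratio was 7.59 (95% interval 4.91 to 11.7, adjusted p = 0.000447). Against both rises, pax3a was 3.05 times as high in non-crest cells as in trunk crest (95% interval 1.83 to 5.06, adjusted p = 0.0102). All 3 genes passed this test, 2 higher and 1 lower in trunk crest, where 8.28% of all genes tested were higher and 13.4% lower, 21.6% in either direction. Each of the 3 calls held in all 12 alternative settings tried. For pax3a the adjusted p reached 0.0447 there, close to the threshold, against at most 0.00529 for pax7a and 0.00459 for pax7b. Without non-crest replicate 3 the log2 differences of trunk crest minus non-crest were -1.75 for pax3a, 2.86 for pax7a and 3.19 for pax7b. All 3 passed there, and the calls over all genes numbered 6529 in place of 4513. This comparison shares its trunk libraries with the one before, so their results are not independent of each other.

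Relative to the median of all genes, the differences between trunk crest and non-crest cells kept their direction but not their size. That of pax3a became smaller, and those of pax7a and pax7b became larger. That median was -0.25 on the log2 scale for trunk crest against non-crest cells, and -0.074 with TMM-scaled library sizes. With library totals the log2 differences were -1.61 for pax3a and 3.18 for pax7b. Measured from the median, pax3a stood at -1.36 and pax7b at 3.43 with library totals, and at -1.22 and 3.57 with TMM scaling. With TMM scaling the calls over all genes were 2386 higher and 2014 lower in trunk crest, in place of 1726 and 2787 with library totals.

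Cardiac crest against non-crest cells asks what marks the crest within the same tissue and age. None of the 3 genes passed edgeR's quasi-likelihood test, at an adjusted p or at an unadjusted p under 0.05, and DESeq2 called 0 of them as well. Over all 19648 genes tested, 1.50% passed, 0.290% higher and 1.21% lower in cardiac crest. That is 294 genes, a count that fell to 93 without cardiac crest replicate 2. At an unadjusted p under 0.05 the shares were 10.8% in all, 4.39% higher and 6.45% lower. With DESeq2 they were 4.57% of 24982 genes, 1.36% higher and 3.20% lower. The log2 difference of cardiac crest minus non-crest was -0.93 ± 0.44 (SE) for pax3a, adjusted p = 0.499, with a 95% interval of -1.94 to 0.07. For pax7a it was -0.17 ± 0.52 (SE), adjusted p = 0.946, with a 95% interval of -1.36 to 1.02. For pax7b the 95% interval of the ratio ran from 0.478 to 2.08 around a value close to 1, adjusted p = 0.998. These intervals leave room for a pax3a level up to 3.83 times as high in non-crest cells as in cardiac crest, and for a pax7a level up to 2.57 times as high. Without both libraries numbered 3 the log2 differences were -1.01 for pax3a, 0.085 for pax7a and 0.23 for pax7b, none of them past the threshold.

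Per kilobase of gene body the 3 genes could be ranked within a group. In trunk crest, pax7b stood at 6.61 ± 0.832 CPM per kb, pax7a at 0.759 ± 0.0627 and pax3a at 0.477 ± 0.0876 (SD, n = 3 each), and no ranges overlapped. In non-crest cells the order was pax3a at 1.53 ± 0.557 CPM per kb, pax7b at 0.741 ± 0.255 and pax7a at 0.0946 ± 0.0220, again with no overlap between neighbours. In cardiac crest, pax3a at 0.799 ± 0.440 and pax7b at 0.747 ± 0.471 CPM per kb overlapped almost wholly, and pax7a stood below them at 0.0844 ± 0.0576. The gene with the highest level per length was thus pax3a in non-crest cells and pax7b in trunk crest. Because intronic reads and intron length enter this scale, the order between genes is tied to it.

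Ratios of reads within a library need no scaling between libraries. Reads of pax7b per read of pax3a numbered 1.40, 1.29 and 0.871 in cardiac crest, 0.578, 0.515 and 0.746 in non-crest cells, and 19.2, 14.9 and 18.5 in trunk crest. The 3 groups did not overlap. By geometric means, the trunk ratio was 15.02 times that of cardiac crest and 28.8 times that of non-crest cells. The cardiac crest ratio was 1.92 times that of non-crest cells. Each of these differences had p = 0.1 in a two-sided exact permutation test, the smallest that 3 libraries against 3 allow, and 0.24 after Benjamini-Hochberg adjustment over 12 such tests. This ratio did not overlap between cardiac crest and non-crest cells, where the level of each gene did, but its nearest libraries stood at 0.871 and 0.746. The other ratios tested overlapped between these groups, with an exact permutation p of 0.3, 0.4 and 0.5. This exact test cannot go below p = 0.1.

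Reads of pax7a per read of pax3a numbered 0.302, 0.258 and 0.137 in cardiac crest, 0.118, 0.140 and 0.150 in non-crest cells, and 4.67, 2.91 and 2.98 in trunk crest. The trunk ratio was 15.6 times that of cardiac crest and 25.4 times that of non-crest cells, both without overlap, with an exact permutation p = 0.1 in each case. Cardiac crest and non-crest ranges overlapped here, with an exact permutation p = 0.3. The ratio of the duplicates to each other, by contrast, overlapped between all groups. Reads of pax7b per read of pax7a numbered 4.62, 4.98 and 6.34 in cardiac crest, 4.91, 3.68 and 4.97 in non-crest cells, and 4.11, 5.13 and 6.20 in trunk crest. The exact permutation p was 0.4 for cardiac crest against non-crest, 0.9 for cardiac against trunk crest and 0.4 for non-crest against trunk crest.

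**Figure D2:**
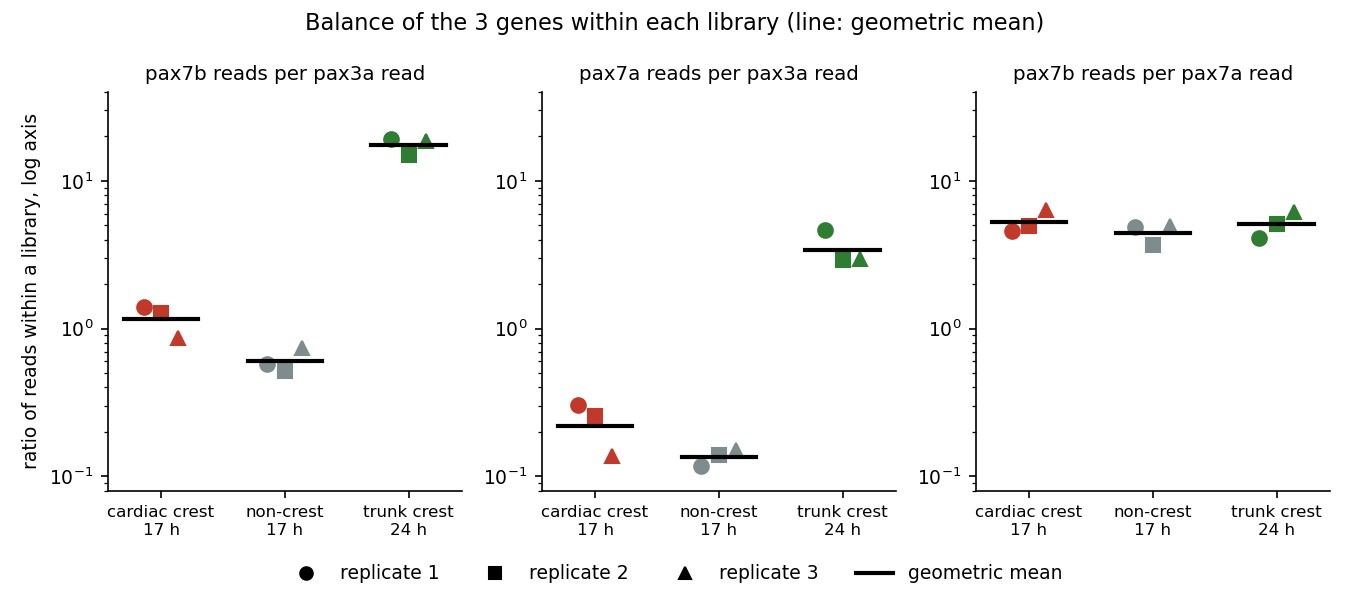
Ratios of reads between members within each library, on a log axis; points are libraries and bars are geometric means. Ratios of pax7b and pax7a to pax3a are more than an order of magnitude higher in trunk crest, with pax7b per pax3a at 14.9 to 19.2, while pax7b per pax7a stays between 3.68 and 6.34 in all 9 libraries.

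The other matched genes of the paired-box family held few reads in trunk crest. The family was taken as 12 further genes, of which 11, all but pax8, were matched in the tables. The 3 genes described here held 98.9 ± 0.24% of the reads of the 14 matched genes in trunk crest (SD, n = 3). Their share was 62.3 ± 16.3% in cardiac crest and 47.4 ± 12.9% in non-crest cells (SD, n = 3 each). Reads of pax7b alone made up 78.7 ± 2.74% in trunk crest, against 30.7 ± 10.2% in cardiac crest and 16.9 ± 6.46% in non-crest cells. The share of pax3a was 4.54 ± 0.65% in trunk crest, 25.5 ± 3.79% in cardiac crest and 26.9 ± 5.65% in non-crest cells. Summed over the 14 genes, the family stood at 638 ± 58.2 CPM in trunk crest, 188 ± 88.0 CPM in cardiac crest, and 351 ± 115 across non-crest libraries. These shares count reads, so longer gene bodies weigh more.

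**Figure D3:**
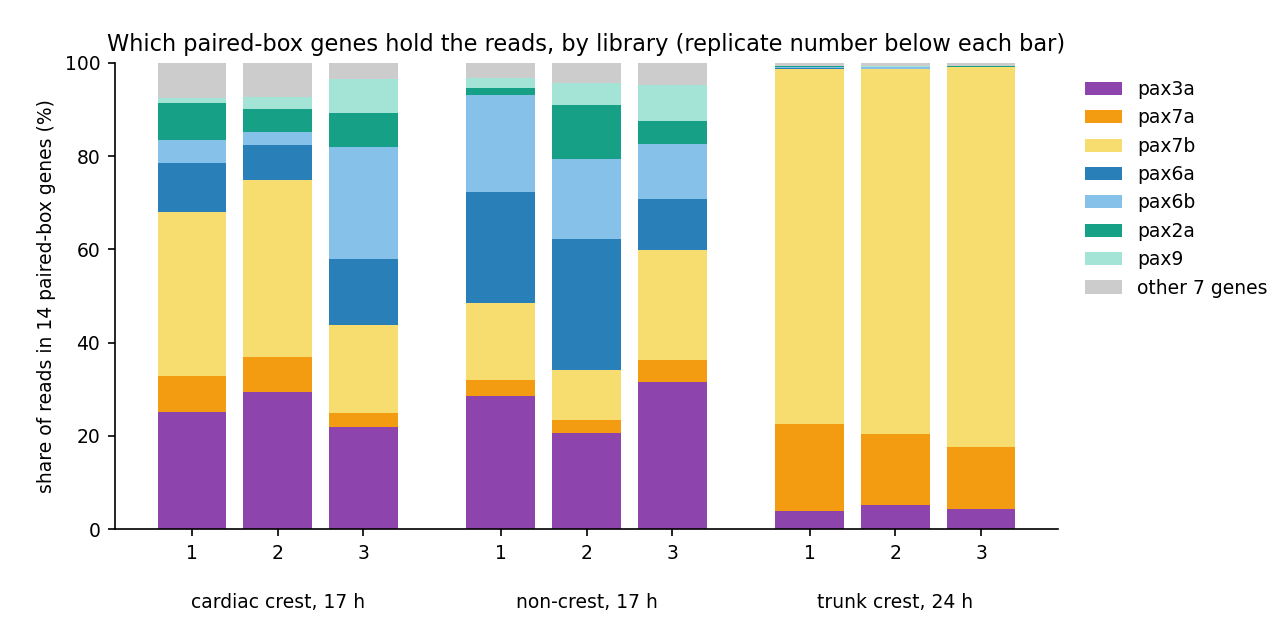
Share of the reads of 14 paired-box genes held by each gene in each library, in percent. In trunk crest pax7b fills most of every bar, a mean of 78.7%, whereas pax6a, pax6b and pax2a hold visible parts of the bars of the 17 h groups.

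Of all genes tested, 10.7% were higher and 12.5% lower in cardiac crest than in trunk crest. Against trunk crest, 2 of 11 other paired-box genes were higher in cardiac crest and none was lower. They were pax2a, a gene of the midbrain-hindbrain boundary, ear and kidney, and pax6a, a gene of the eye and the neural tube. The mean of pax2a was 337 ± 118 scaled reads for cardiac and 10.4 ± 8.58 for trunk crest (SD, n = 3) (log2 difference 5.09 ± 0.66 SE, adjusted p = 0.000958). The means of pax6a were 560 ± 294 and 32.5 ± 31.5 scaled reads (log2 difference 4.59 ± 0.90 SE, adjusted p = 0.00727). At an unadjusted p under 0.05, 4 of the 11 were higher and 1 lower in cardiac crest, and edgeR on recovered reads called 2 of 9 higher. By the authors' deposited test pax1b (adjusted p = 0.00195), pax2b (0.0205) and pax9 (0.0128) were higher in cardiac crest as well, and none of the 11 was lower. The shares of all genes by these criteria were not set beside them. Of all genes tested, 13.4% were lower and 8.28% higher in trunk crest than in non-crest cells. Against non-crest cells, 4 of 11 other paired-box genes were lower in trunk crest and none was higher. These were pax6a at 0.914 ± 0.894 against 79.2 ± 46.4 CPM, its duplicate pax6b at 1.07 ± 0.936 against 61.4 ± 34.3 CPM, pax2a at 0.289 ± 0.237 against 20.4 ± 18.4 CPM, and pax9, a gene of the sclerotome and pharyngeal pouches, at 1.10 ± 0.242 against 14.6 ± 4.48 CPM. Their log2 differences were -5.25 (adjusted p = 0.00134), -4.87 (adjusted p = 0.00134), -3.72 (adjusted p = 0.00497) and -2.85 (adjusted p = 0.00247). Of the span of pax9, 6.42% is shared with genes on the other strand, and counting used no strand.

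Between cardiac crest and non-crest cells, 0 of 10 other paired-box genes passed edgeR's test, 1 was lower at an unadjusted p under 0.05, and DESeq2 called 2 of 11 lower. The 1 was pax6a, at 9.43, 19.5 and 30.3 CPM across cardiac crest libraries, against 111, 101 and 26.0 CPM across those of non-crest cells. Its duplicate pax6b stood at 4.37, 7.23 and 51.9 CPM in cardiac crest, the replicate with muscle transcripts being far above the other two. In the same groups pax2a stood at 11.9 ± 4.44 and 20.4 ± 18.4 CPM and pax9 at 7.85 ± 7.44 and 14.6 ± 4.48 CPM, with overlapping ranges. Every matched paired-box gene not yet named had a group mean of at most 4.39 CPM. Among them pax3b, the duplicate of pax3a, stood at 1.30 ± 0.503 CPM in cardiac crest, 4.39 ± 3.52 in non-crest cells and 1.38 ± 0.313 in trunk crest. Its reads per read of pax3a overlapped between all groups. Group means of pax1a, pax1b, pax2b, pax4, pax5 and pax10 ran from 0.02 to 3.79 CPM, with pax1b at 10.5 CPM in cardiac crest replicate 2 and 0.829 and 0 CPM in the other two.

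**Figure D4:**
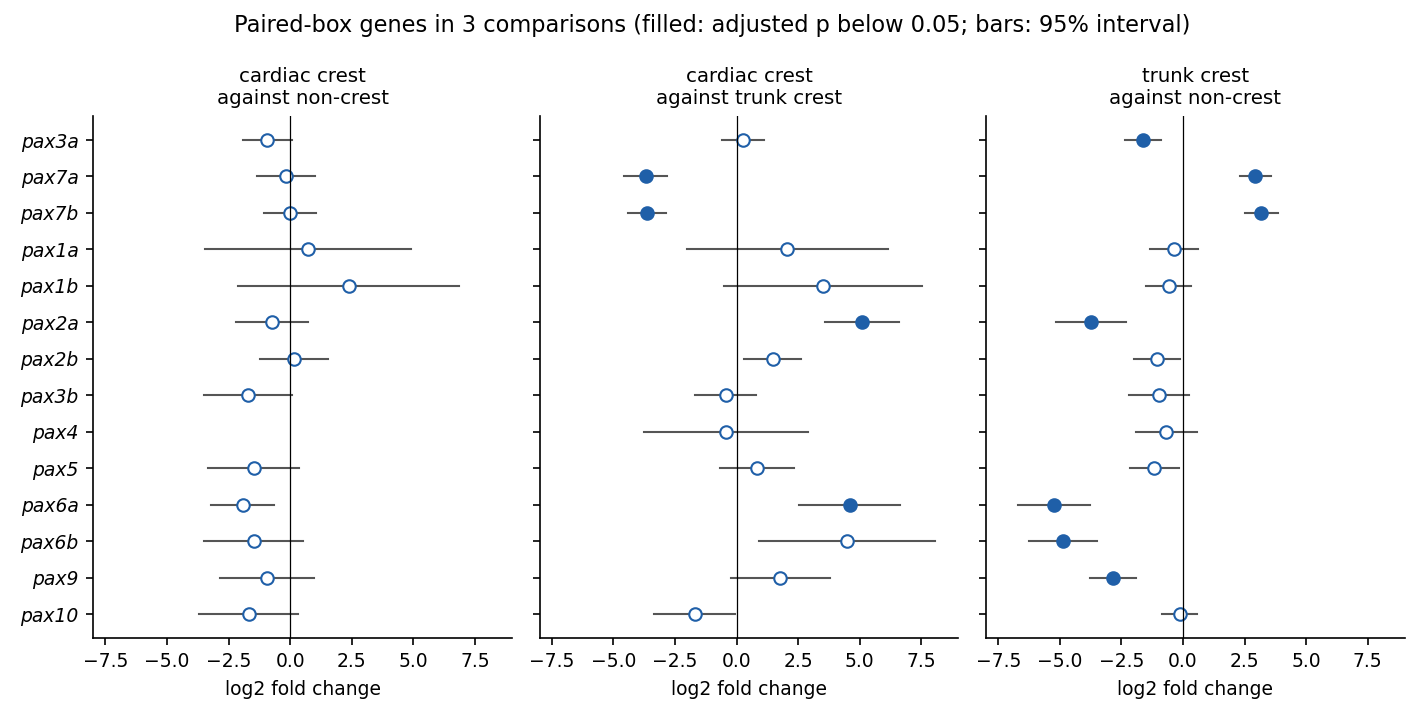
Log2 differences of the 3 members and the other paired-box genes in the 3 comparisons, with 95% intervals; filled points passed an adjusted p of 0.05. In trunk crest against non-crest cells pax7a (2.92) and pax7b (3.18) lie to the right, while pax3a (-1.61), pax6a, pax6b, pax2a and pax9 lie to the left.

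The other genes are given by lists of the settings in which PAX3 and PAX7 act. Of all genes tested, 8.28% were higher and 13.4% lower in trunk crest than in non-crest cells. Against cardiac crest, 12.5% were higher and 10.7% lower in trunk crest. For cardiac crest against non-crest cells, the shares by each test are given above. Xanthophore genes were mostly higher in trunk crest. Against non-crest cells, 9 of 11 were higher there and none was lower, with a median log2 difference of 4.14 beside -0.25 over all genes. The gene gch2, GTP cyclohydrolase of yellow pteridine synthesis, stood at 45424, 43780 and 41148 CPM across trunk crest libraries, against 3.53, 2.78 and 0 CPM across those of non-crest cells. Its log2 difference was 14.04 ± 0.52 (SE), adjusted p = 1.04e-05. The sugar transporter gene slc2a11b stood at 1411 ± 204 against 6.31 ± 5.22 CPM, and slc2a15b, of the same transporter family, at 530 ± 38.7 against 2.48 ± 1.25 CPM. The oxidase gene aox5 stood at 407 ± 29.9 against 13.9 ± 21.8 CPM. The 2 genes that did not pass were scarb1, a carotenoid uptake receptor, and sox5, a transcription factor of pigment cell choice, at log2 differences of 0.67 and 0.78.

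Against cardiac crest, 9 of 11 xanthophore genes were higher in trunk crest as well, the median log2 difference of cardiac minus trunk crest being -3.99 beside 0.14 over all genes. Between cardiac crest and non-crest cells 0 of 10 passed edgeR's test, 4 were higher in cardiac crest at an unadjusted p under 0.05, and DESeq2 called 3 of 11 higher. There gch2 stood at 10.4, 16.2 and 44.1 CPM in cardiac crest, above all non-crest libraries, at an adjusted p of 0.358 and a log2 difference of 3.60 ± 1.34 (SE). The transporter gene slc2a11b stood at 112 ± 22.3 against 6.22 ± 5.13 CPM on the scale of the count table, a log2 difference of 4.28 ± 0.93 (SE), adjusted p = 0.0827. The ranges of gch2 and slc2a11b did not overlap between these groups. Genes of this list were named by the size of their difference, which favours such separation. The overlapping ranges of pax7a and pax7b therefore cannot be set against it. Neither gch2 nor slc2a11b passed the test, and the share of all genes without overlap was not determined.

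Genes of the other pigment cells were also higher in trunk crest. All 13 melanophore genes, of black pigment cells, passed against non-crest cells, with a median of 4.78 on the log2 scale, and all 13 against cardiac crest. Among them dct, a melanin synthesis enzyme gene, stood at 1037 ± 218 CPM in trunk crest and 0.433 ± 0.355 CPM in non-crest cells, a log2 difference of 9.51 ± 0.30 (SE), adjusted p = 6.63e-06. Of 10 iridophore genes, of reflective pigment cells, 7 were higher and 1, fhl2a, lower in trunk crest than in non-crest cells. Against cardiac crest 6 of 10 were higher in trunk crest, and 4 without trunk crest replicate 1. Over all genes the number higher in trunk crest fell from 2596 to 2015 without that library. The purine synthesis gene pnp4a stood at 600 ± 128 CPM in trunk crest against 0.864 ± 1.41 CPM in non-crest cells (adjusted p = 8.62e-05). The list of iridophore genes shares tfap2a with that of early crest regulators. Between cardiac crest and non-crest cells, 0 of 12 melanophore genes passed, 3 were higher at an unadjusted p under 0.05, and DESeq2 called 2 of 13 higher. For iridophore genes there, 0 of 9 passed, 3 were higher and 1 lower at an unadjusted p under 0.05, and DESeq2 called the same numbers.

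Of all genes tested, 0.290% were higher and 1.21% lower in cardiac crest than in non-crest cells. Early crest regulators moved in both directions. Of 13, 3 were higher in cardiac crest than in non-crest cells, namely sox10, the transcription factor gene ets1 and id2a, which encodes an inhibitor of helix-loop-helix factors. Since a sox10 fragment drives the reporters, sox10 was favoured by the sort itself in both comparisons with non-crest cells. The number higher in this list was 1 without any one of cardiac crest replicates 1 and 2 or non-crest replicates 1 and 2. It was 6 without both libraries numbered 3 or with DESeq2. Over all genes the number higher was 57 in the main fit and 14 to 39 without those single libraries. It was 140 without both libraries numbered 3 and 341 with DESeq2. Against cardiac crest, 3 were lower and 4 higher in trunk crest, beside 10.7% and 12.5% of all genes tested. Only 1 was lower when cardiac crest replicate 1 or 2 was left out, where 1333 and 1344 of all genes were, in place of 2233. The 3 were twist1b, sox9a and snai1b, and the 4 were snai1a, tfap2e, snai2 and sox10. The largest difference among them was that of twist1b, a mesenchyme transcription factor gene, with 987 ± 361 scaled reads in cardiac crest against 30.1 ± 33.0 in trunk crest (log2 difference 6.30 ± 1.32 SE, adjusted p = 0.00969). Against non-crest cells, 6 were higher and 3 lower in trunk crest, beside 8.28% and 13.4% of all genes tested. With edgeR on the reads, 1 was lower, where 1943 of all genes were, in place of 2787. The 3 were twist1a, twist1b and sox9a.

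Genes of the neural plate border and dorsal neural tube, where pax3a and the pax7 genes are active early, were mostly lower in trunk crest. Of 18, 14 were lower than in cardiac crest, with a median log2 difference of 4.47 for cardiac minus trunk crest, and 12 to 14 were under the alternatives. Against non-crest cells 9 were lower and 2 higher in trunk crest, the median being -2.86, or -3.03 with the genes at 0 set to a floor of 3 reads. Without non-crest replicate 3, 14 were lower, where 4366 of all genes were, in place of 2787. The zinc finger gene zic2b stood at 195, 261 and 160 CPM in cardiac crest, at 185, 317 and 70.9 CPM among non-crest libraries, and at 15.7, 7.66 and 3.90 CPM in trunk crest. The genes olig4, irx1a and msx2a had 0 reads in all 3 trunk libraries. The 2 genes higher in trunk crest than in non-crest cells were the homeobox genes msx1b and msx2b, with msx1b at 879 ± 121 against 187 ± 140 CPM. Between cardiac crest and non-crest cells 0 of 18 passed edgeR's test, 3 were higher in cardiac crest at an unadjusted p under 0.05, and DESeq2 called 3 higher.

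Dermomyotome and myogenic regulators, like pax3a, were mostly lower in trunk crest than in non-crest cells. Of 17, 10 were lower than in non-crest cells and none was higher, with a median log2 difference of -2.16, and 7 passed without trunk crest replicate 2. Over all genes the number lower fell from 2787 to 1411 without that library. The somite gene meox1 stood at 4.52, 1.63 and 0.0398 CPM in trunk crest, at 223, 133 and 580 CPM in non-crest cells and at 119, 90.1 and 138 CPM in cardiac crest. Its log2 difference of trunk crest minus non-crest was -6.71 ± 0.71 (SE), adjusted p = 0.00076. The gene lbx1b, a homeobox gene of migrating muscle precursors and dorsal spinal neurons, had 0 reads in trunk crest and 53.4 ± 37.1 CPM in non-crest cells. The somite genes tcf15 and six1a stood at 2.68 ± 0.752 against 119 ± 152 CPM and at 3.25 ± 2.96 against 57.3 ± 15.1 CPM. Against cardiac crest, 5 of 17 (lbx1b, meox1, ripply1, eya2 and tcf15) were lower in trunk crest and none was higher. Without cardiac crest replicate 3, 3 were higher there. Of all genes tested, 10.7% were lower and 12.5% higher in trunk crest than in cardiac crest. Between cardiac crest and non-crest cells 0 of 16 passed, 7 were lower in cardiac crest at an unadjusted p under 0.05, and DESeq2 called 2 lower.

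**Figure D5:**
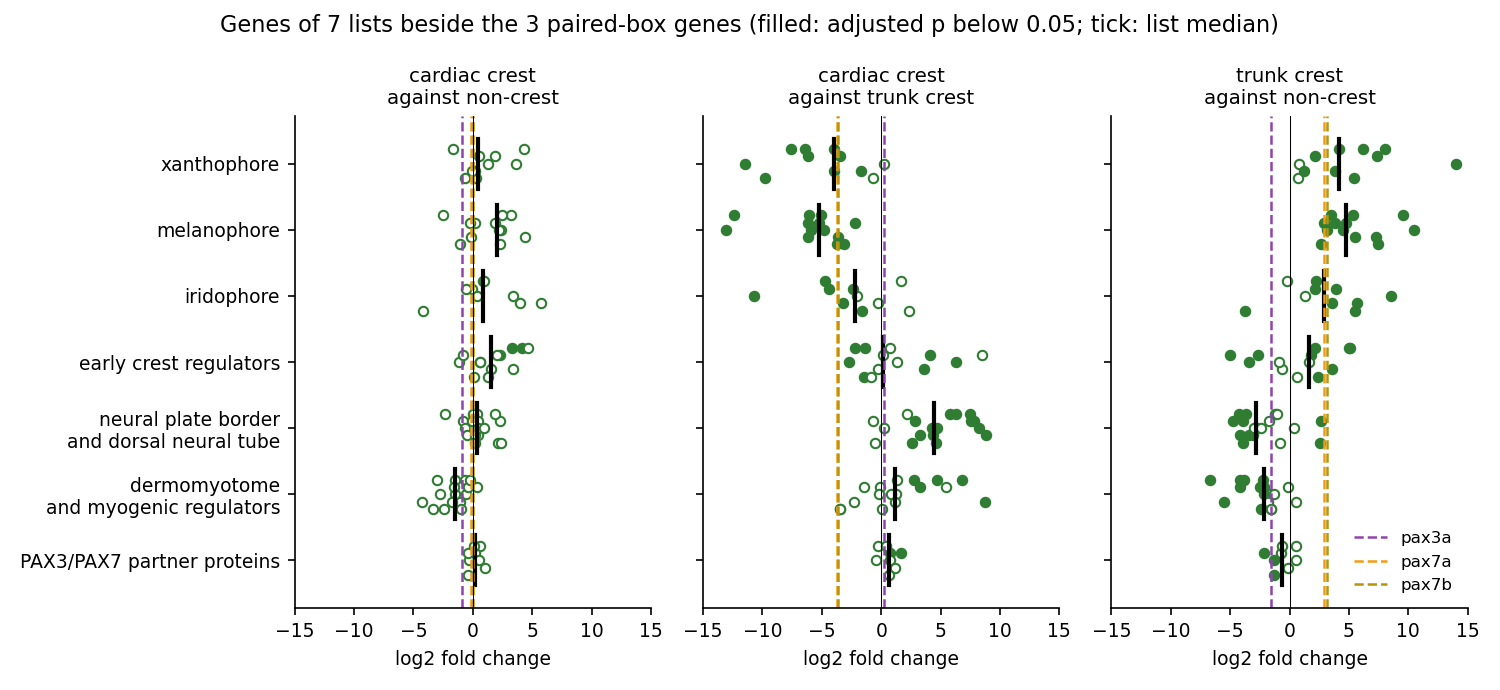
Log2 differences of the genes of each list in the 3 comparisons; points are genes, filled where the adjusted p was below 0.05, short black bars are list medians, and dashed lines mark pax3a, pax7a and pax7b. For trunk crest against non-crest cells the median is 4.14 for xanthophore genes and -2.16 for dermomyotome and myogenic regulators.

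The gene lists of other cell types had the following summed levels. The summed level of the dermomyotome list was 31.95 to 97.4 CPM in trunk crest, 260 to 476 in cardiac crest, and 452 to 1391 across non-crest libraries. Markers of neural progenitors and neurons summed to 56.2 to 200 CPM in trunk crest, with the progenitor genes sox19a, sox1a and sox1b at 0, to 332 to 609 CPM in cardiac crest and to 437 to 1190 CPM in non-crest cells. Both sums were lower in every trunk crest library than in any 17 h library. The pax3a ranges of trunk and cardiac crest overlapped. Differentiated muscle markers summed to 7391 to 27755 CPM in trunk crest and 11188 to 16257 CPM in non-crest cells. Within trunk crest they were highest in replicate 1, where pax7b and pax3a were lowest and pax7a highest. Without that library the log2 differences of trunk crest minus non-crest were 2.86 for pax7a, 3.27 for pax7b and -1.46 for pax3a, and all 3 still passed. Epidermal markers summed to 7880 to 20041 CPM in non-crest cells and to at most 1094 CPM in any crest library. Endothelial markers summed to 481 to 912 CPM in non-crest cells, 17.1 to 21.5 CPM in cardiac crest and 4.46 to 15.5 CPM in trunk crest. Heart markers summed to 57.7 to 165 CPM in non-crest cells, 6.05 to 24.6 CPM in cardiac crest and 0.438 to 2.35 CPM in trunk crest. For the lower pax3a in trunk crest, the part of the other cell types in the non-crest group was not tested.

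Proteins that work with PAX3 and PAX7 were examined in a list of 8 matched genes, which included subunits of histone methyltransferase complexes and the histone chaperone genes hira and daxx. Of all genes tested, 13.4% were lower in trunk crest than in non-crest cells. Against non-crest cells 3 of the 8 were lower in trunk crest. Only 1 was without trunk crest replicate 1 or non-crest replicate 1, and none without trunk crest replicate 2. Over all genes 2787 were lower, against 1666 without trunk crest replicate 1, 1822 without non-crest replicate 1 and 1411 without trunk crest replicate 2. The 3 were tead1a, a transcription factor gene, at 3.74 ± 2.62 against 18.3 ± 3.87 CPM, paxip1 at 20.2 ± 8.93 against 49.4 ± 6.28 CPM, and hira at 16.7 ± 2.06 against 43.0 ± 6.07 CPM. Of all genes tested, 10.7% were lower in trunk crest than in cardiac crest. Against cardiac crest 2 of the 8, tead1a and daxx, were lower in trunk crest. None passed without any one of the cardiac crest libraries or of trunk crest replicates 1 and 2. Over all genes the number lower in trunk crest was then 1333 to 1869, in place of 2233. Between cardiac crest and non-crest cells 0 of 8 passed with edgeR or with DESeq2, and 0 had an unadjusted p under 0.05.

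The genes most like each member across the 9 libraries were sought among 8585 genes by Pearson correlation of log2(CPM + 1). The nearest to pax7a was pax7b and the reverse, at r = 0.990. Next to pax7a came the cation exchanger gene slc24a4a at r = 0.983 and the glycosyltransferase gene mgat4b at r = 0.982. Next to pax7b came the melanosomal cation exchanger gene slc24a5 at r = 0.985 and the proton pump subunit gene atp6v0ca at r = 0.980. Of these, slc24a5 stood at 34.1, 54.8 and 51.9 CPM in trunk crest and at 0.364 to 2.00 CPM elsewhere, and atp6v0ca at 967 ± 178 CPM in trunk crest, 152 ± 41.9 in cardiac crest and 152 ± 15.1 in non-crest cells. Nearest to pax3a were gpc6a, a glypican gene, at r = 0.972, lrch1 at r = 0.969 and robo2, a receptor for Slit guidance cues, at r = 0.968. The receptor gene robo2 stood at 33.9 ± 7.32 CPM in non-crest cells, 13.4 ± 9.79 in cardiac crest and 6.69 ± 3.40 in trunk crest. Across the same libraries pax3a had r = -0.44 with pax7a and r = -0.43 with pax7b. The 9 points fall into the 3 groups and share their libraries and scaling, so these values describe the group pattern, and no test is attached to them.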

How the data were processed

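RNA was measured in 9 libraries of sorted zebrafish cells, made with the SMART-Seq v4 full-length cDNA kit and sequenced single-end, per the labels' protocols. The submitters' processing notes name Bowtie2, the GRCz10 build, and featureCounts of the Subread package. The deposited count table gives each gene's raw count for the 6 libraries of 17 h embryos. The counts came from featureCounts 1.5.1 on Ensembl release 80, over whole genes and without strand, per the file headers. Of the listed genes, lbx1a, six4b and cldne lie wholly within the span of another annotated gene. The genes smyhc1, pmela, sox9b and dla share 66.6% to 96.5% of their spans with others, and cdh5, ttn.2 and aox5 share 25.1% to 47.2%. How reads in such shared stretches were assigned was not examined. The deposited table that compares cardiac and trunk crest holds a scaled signal, the authors' read counts divided by a size factor per library. It also holds the authors' log2 fold changes, their test score, p-values and −log10 adjusted p. DESeq is named without a version in the submitters' processing notes.

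Cardiac crest and non-crest were compared with edgeR 4.0.16 (quasi-likelihood, TMM, filterByExpr) in R 4.3.3; its SE is the size of the log2 difference divided by the square root of F. Cardiac and trunk crest were compared with limma 3.58.1 on log2(value + 1), and trunk crest and non-crest likewise on CPM of reads. For the latter, 100% of scaled values came out as whole reads within 0.02. Fold changes on these 2 scales understate the change of low genes. The p-values of these fits were adjusted over all genes tested by Benjamini-Hochberg, with a threshold of 0.05, and those of the ratios over 12 tests. Scripts were checked on simulated data. DESeq2 1.42.0 and edgeR on recovered reads were alternatives. DESeq2 used its own adjustment, and any gene it left without an adjusted p was counted as tested and not called. The reads carry no molecular identifiers, so read numbers are not numbers of independent molecules.

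The members and gene lists were chosen with earlier results of these data known. Named genes of each list are at most the 4 with the largest difference among those called in the comparison described, or else the largest at 5 CPM or more in 1 group; those discussed beyond that, namely scarb1, sox5, msx1b, msx2b, fhl2a and some early crest and somite genes named without values, were chosen after their values were seen. Symbols came from the deposited table for 17643 genes and from a reference name table for 8806 of 31953. In all, 19 list genes were matched to no row and are not analysed here. No sequence was read.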

Additional observations from a re-analysis of the deposited data

How the results depend on the processing

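Of 108 member values under alternatives, 98 kept their direction and their side of the threshold, and 10 turned direction, all of them values that had not passed. No call was gained or lost. For cardiac crest against non-crest, the log2 difference of pax7b turned to 0.058 with upper-quartile factors and to 0.23 without both libraries numbered 3, and that of pax7a to 0.085 without those. Leaving out single libraries, it ran from -0.58 to 0.22 for pax7b, from -0.81 to 0.054 for pax7a and from -1.36 to -0.65 for pax3a. For cardiac against trunk crest it ran from -0.080, without cardiac crest replicate 2, to 0.67 for pax3a. There pax7a ran from -4.15 to -3.42 and pax7b from -4.06 to -3.37. For trunk crest against non-crest, the ranges were -1.75 to -1.33, 2.81 to 3.09 and 2.93 to 3.43 for pax3a, pax7a and pax7b.

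Cardiac crest against non-crest gave 294 calls, 1141 with DESeq2 and 752 without both libraries numbered 3, and 93 to 361 without single libraries, with 102 and 93 when cardiac crest replicate 1 and 2 were left out, and 171 and 163 for those numbers of non-crest. Cardiac against trunk crest gave 4829 calls and 3205 to 4591 without single libraries, fewest without cardiac crest replicate 2; trunk crest against non-crest gave 4513 and 2359 to 6529, fewest without trunk crest replicate 2, with 2688 and 2555 when trunk crest replicates 1 and 3 were left out and 2947 when non-crest replicate 1 was. The causes were not tested. The labels state no pairing by replicate number. Cardiac crest and non-crest libraries of one number carry neighbouring library numbers, which the labels do not explain. Their deviations from the group means correlated at 0.03, 0.02 and 0.17, not all above 0.1, so they were not treated as pairs. Between libraries of unlike number the correlations ran from -0.21 to 0.27. With 3 libraries a group, these values cannot decide whether libraries of one number are pairs. Whether they share a preparation was not tested. With the number as a block, the counts were 284, 4273 and 3690, and no member's call changed (pax3a in trunk crest against non-crest, adjusted p = 0.0274). The members had 260 reads or more in every library, and with 3 libraries a group their intervals reflect the spread between libraries.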
